A study of Mus musculus with 24 samples.

Results

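The genes described here are 9 genes of oligodendrocytes and myelin, namely Mbp, Mobp, Mog, Mag, Cnp, Opalin, Olig1, Olig2 and Sox10, chosen by name and read through every array probe whose transcript accession belongs to them. They are 9 of the 18566 named genes tested and carry 13 of the 56605 probes on the array. Mbp has 3 probes, Mobp and Mog have 2 each, and the other 6 genes have 1. The samples are hippocampi of 24 male mice, 1 Agilent single-colour array per animal. APP-PS1_UA (n = 4) are APP/PS1 mice (B6.Cg-Tg(APPswe,PSEN1dE9)85Dbo/J, + APP + PSEN), which carry transgenes for a mutant amyloid precursor protein and a mutant presenilin and form amyloid plaques, given urolithin A by daily gavage between 2 and 7 months of age. Urolithin A is a gut microbial metabolite of ellagitannins known as an inducer of mitophagy. APP-PS1_CTR (n = 3) are APP/PS1 mice given water, and WT_CTR (n = 4) are mice without the transgenes given water. APP-PS1_UA-WASHOUT (n = 5), APP-PS1_WASHOUT (n = 3) and WT_WASHOUT (n = 5) are their counterparts left for 1 further month after gavage ended. Sample characteristics put the ages at 8 months, and 9 months for the washout groups, whereas the series design places collection at 7 months and 1 month after that. For the daily dose, the treatment protocol has 200 mg/kg and the series design 20 mg/kg.

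Oligodendrocytes wrap axons of the central nervous system in myelin, a stack of membrane sealed by specific proteins. OLIG1, OLIG2 and SOX10 are transcription factors that specify the lineage and drive its maturation, and SOX10 and MYRF switch on the myelin genes in the mature cell. In the hippocampus the lineage includes precursors spread through all layers and mature cells concentrated in the white matter tracts that border and enter it, such as the alveus and fimbria. In bulk tissue, fewer cells of a type and less RNA per cell cannot be told apart. Every value below is a log2 signal relative to the array's 75th percentile unless it is called a change, and a change is a difference of group means in log2 units. Levels of different probes are not comparable, because probes differ in how they hybridise.

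All 13 probes were well above background on all 24 arrays and none had a software outlier flag, so the background filter removed no member. The arrays lay on 3 slides of 8. APP-PS1_CTR and WT_CTR were on slide 1. Of APP-PS1_UA, replicate 1 was on slide 1 too, whereas replicates 2 to 4 shared slide 2 with WT_WASHOUT. APP-PS1_UA-WASHOUT and APP-PS1_WASHOUT were together on slide 3. In both comparisons of a transgenic washout group with WT_WASHOUT, slide and group therefore cannot be told apart. In the comparisons of APP-PS1_UA with APP-PS1_CTR and WT_CTR they can be told apart only through APP-PS1_UA replicate 1. The APP-PS1_CTR arrays all lay in array row 2 and the WT_CTR arrays all in row 1. P-values measure the spread between these animals, with 1 array each. Between 63.7% and 76.9% of an array's spots were well above background, and 0 were saturated. The small number of arrays per group limits the precision.

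Promoter sequences of 4 myelin genes that varied together across arrays are shown because SOX10, itself among the 9 genes, and MYRF are the factors known to act on such genes. Each is the 250 bases before the transcription start, 5′ to 3′ on the gene's strand, from RefSeq's GRCm38.p6 table. Capitals mark matches to the 6 motifs searched on both strands, namely the SOX motifs ACAAAG and ACAATG, the OLIG E-boxes CAGCTG and CATATG, and the MYRF motifs CTGGCAC and CTGGTAC. A match on the opposite strand appears as its reverse complement, so CTTTGT is ACAAAG. For Mag the window precedes the farthest upstream of 3 annotated starts.
Mobp, chr9:120149492-120149741 (+): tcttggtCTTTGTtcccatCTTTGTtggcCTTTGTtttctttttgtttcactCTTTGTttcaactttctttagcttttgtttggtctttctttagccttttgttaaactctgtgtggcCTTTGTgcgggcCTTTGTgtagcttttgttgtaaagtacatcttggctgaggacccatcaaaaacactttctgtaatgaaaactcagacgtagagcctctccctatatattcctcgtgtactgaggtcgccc
Mog, chr17:37023399-37023648 (-): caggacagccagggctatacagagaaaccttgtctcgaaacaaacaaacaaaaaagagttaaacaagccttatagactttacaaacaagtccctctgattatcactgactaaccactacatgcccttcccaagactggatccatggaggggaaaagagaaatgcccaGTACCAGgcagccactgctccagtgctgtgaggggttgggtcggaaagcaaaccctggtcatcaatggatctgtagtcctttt
Mag, chr7:30914923-30915172 (-): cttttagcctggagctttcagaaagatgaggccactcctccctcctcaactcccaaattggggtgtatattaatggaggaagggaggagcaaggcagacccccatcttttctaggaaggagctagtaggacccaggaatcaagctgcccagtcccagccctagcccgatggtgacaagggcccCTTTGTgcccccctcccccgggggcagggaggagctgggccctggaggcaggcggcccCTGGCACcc
Opalin, chr19:41077114-41077363 (-): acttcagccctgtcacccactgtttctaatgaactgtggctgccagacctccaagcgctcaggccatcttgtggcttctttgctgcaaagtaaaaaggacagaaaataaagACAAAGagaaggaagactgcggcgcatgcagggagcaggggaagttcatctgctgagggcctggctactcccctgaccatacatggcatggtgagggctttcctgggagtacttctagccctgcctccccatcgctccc

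The Mobp window held 6 matches to ACAAAG, all on the opposite strand, and the Opalin window held 1. The Mag window held ACAAAG on the opposite strand and CTGGCAC, which lay 9 bases before the start. Mog had CTGGTAC on the opposite strand, 83 bases before the start. Of 32851 windows of the same length in the table, 16.5% held ACAAAG, 10.7% ACAATG, 13.0% CAGCTG, 3.46% CATATG, 4.19% CTGGCAC and 1.83% CTGGTAC, while 40.7% held at least 1 of the 6. These matches describe the letters only.

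The clearest feature was that most probes of the 9 genes moved together from animal to animal within a group. Olig2 followed the others only weakly, and the Mbp probe A_52_P604195 went the other way, as described below. Among the 12 probes other than the Mbp probe A_52_P604195, WT_CTR replicate 4 was the highest array of its group in 10 probes and WT_CTR replicate 2 the lowest in 10. APP-PS1_UA replicate 2 was the highest of its group in 10 probes, and APP-PS1_CTR replicate 2 the lowest of its group in 11. In WT_WASHOUT, replicate 3 was highest and replicate 2 lowest in 9 probes each. In APP-PS1_UA-WASHOUT, replicate 4 was highest in 8 probes and replicate 3 lowest in 9. The order was less shared in APP-PS1_WASHOUT, where replicate 2 was highest and replicate 3 lowest in 7 probes each. APP-PS1_CTR replicate 1 was the highest of its group in 6 probes, and APP-PS1_UA replicate 4 the lowest of its group in 6.

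Opalin, which encodes a membrane protein of myelinating oligodendrocytes, shows the size of this spread. Its values were -1.80, -1.93, -2.06, -0.80 and -1.31 in APP-PS1_UA-WASHOUT, against -0.999, -0.85 and -1.04 in APP-PS1_WASHOUT. Among APP-PS1_UA arrays they were -0.66, -0.56, -1.13 and -1.90, against -0.57, -0.80 and -0.26 in APP-PS1_CTR. Replicates 1 to 3 of APP-PS1_UA-WASHOUT were low, replicate 4 was above every APP-PS1_WASHOUT array, and the groups overlapped in both pairs.
Cnp encodes an enzyme of the cytoplasmic myelin channels, and its values were 2.62, 2.61, 2.61, 3.50 and 3.13 in APP-PS1_UA-WASHOUT, against 3.34, 3.29 and 3.20 in APP-PS1_WASHOUT. Again replicates 1 to 3 were low and replicate 4 lay above all the APP-PS1_WASHOUT arrays. The median SD of the 12 probes was 0.50 in APP-PS1_UA-WASHOUT, 0.11 in APP-PS1_WASHOUT and 0.33 in WT_WASHOUT, and 0.32 in APP-PS1_UA, 0.17 in APP-PS1_CTR and 0.24 in WT_CTR.

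**Figure D1:**
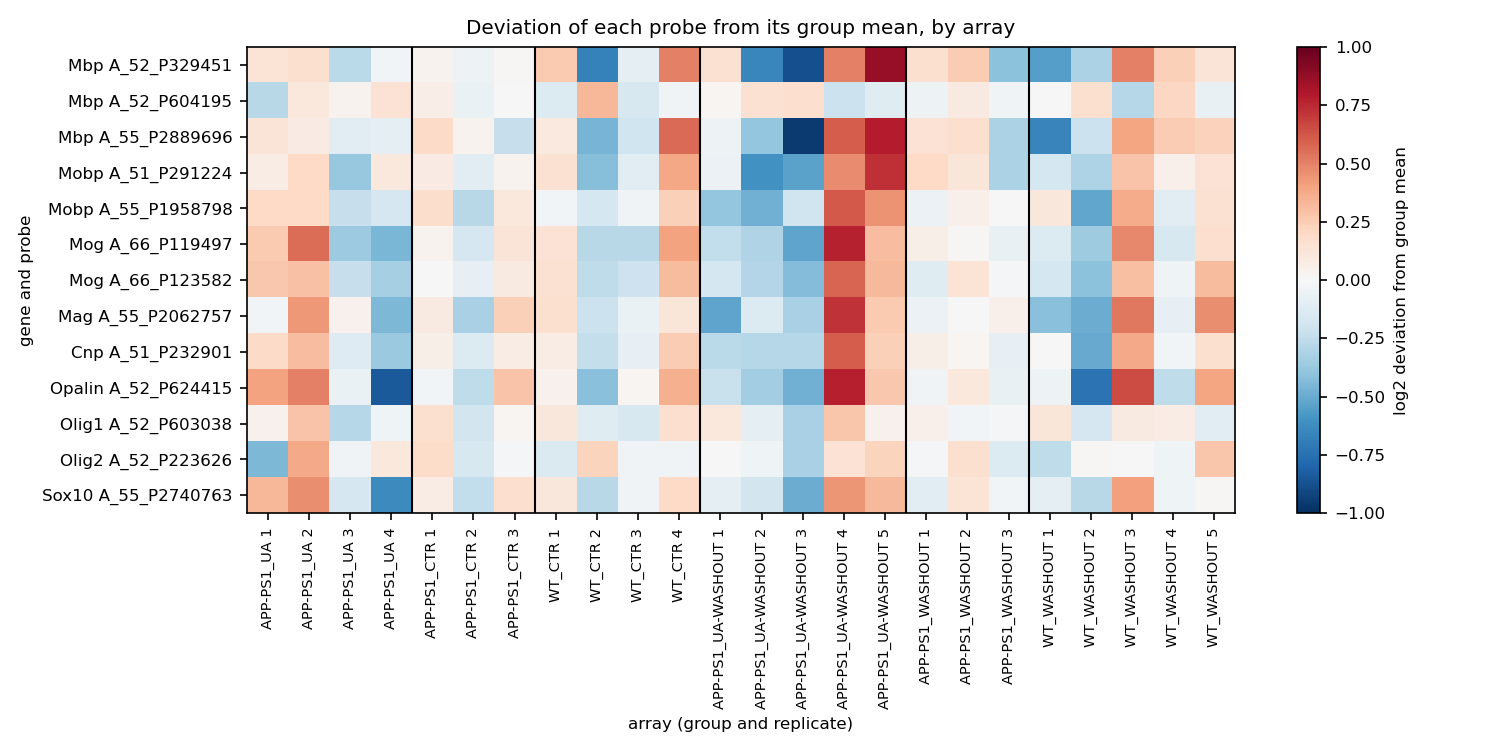
Deviation of each of the 13 probes (rows) from its group mean on each of the 24 arrays (columns), in log2 units, red above and blue below the mean. Columns are mostly of a single colour, with APP-PS1_UA-WASHOUT replicates 4 and 5 red and replicate 3 blue, while the row of Mbp A_52_P604195 has the opposite colour on several arrays.

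After each group's mean was subtracted, each gene was set against the mean of the other 8 over all 24 arrays, as a description of arrays that share slides and dissection. Pearson's r was 0.95 for Cnp, 0.95 and 0.93 for the probes of Mog (a surface glycoprotein of the outermost myelin layer), 0.90 for Opalin and 0.88 for Mag. Sox10, the lineage transcription factor, reached 0.89. Olig1 had 0.66 and Olig2 had 0.33. The probes of Mobp, a structural protein of compact myelin, had 0.86 and 0.74.

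The same measure was applied to all other named genes against the mean of the 9. The 10 most alike included Unc5b (0.93), Ppp1r14a (0.92), A230001M10Rik (0.91), Ttyh2, Gng8, Pllp, Micall1, Olfr1341 and Tmbim1, the last at 0.90. Ppp1r14a and Pllp (a myelin proteolipid) are also on the lineage lists used here. The median r was 0.69 over 15 compact myelin and junction genes, 0.68 over 27 mature oligodendrocyte genes and -0.18 over 14 precursor genes, against 0.02 over all other named genes. Other lineage lists were lower, at 0.46 for genes reported in oligodendrocytes near amyloid, 0.35 for myelin lipid and metabolic enzymes and 0.35 for lineage transcription factors. Markers of hippocampal neurons had a median r of 0.44, choroid plexus markers 0.31, microglia markers 0.30 and thalamus markers 0.28. The part of these other lists in the members' shared movement was not tested.

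Mbp, which encodes myelin basic protein, the adhesive of compact myelin, was read differently by its probes. A_52_P604195, annotated to NM_001025245, was the Mbp probe of highest mean signal and spanned 0.71 over all arrays. A_52_P329451 and A_55_P2889696, both annotated to NM_010777, spanned 2.15 and 2.08. Against the mean of the other 8 genes the first had r = -0.60 and the other pair 0.73 and 0.72.
Probe pairs were compared within each slide of 8 arrays without subtracting group means. Each slide held more than 1 group, so r includes differences between groups, and the permutations ignored group. The pair annotated to NM_010777 correlated at r = 0.87, 0.93 and 0.97. The adjusted exact permutation p was 0.0081, 0.0031 and 0.0013, over 15 tests of a pair on a slide. Spearman's rho for that pair was 0.76, 0.81 and 0.93, with adjusted exact p of 0.079, 0.054 and 0.017. Without the 2 arrays farthest from the median of A_52_P329451, r was 0.73, 0.70 and 0.92.
A_52_P604195 and A_55_P2889696 gave r = -0.62, -0.21 and -0.82, with adjusted exact permutation p of 0.11, 0.64 and 0.026. Spearman's rho was -0.45, -0.14 and -0.57, with adjusted exact p of 0.33, 0.87 and 0.21. Leaving out the 2 arrays farthest from the median of A_52_P604195, which narrows its range, changed r to 0.07, 0.80 and -0.36. On slide 1 the negative r was therefore not seen without those arrays. Slide 2 had no clear slope with them, and on slide 3 r stayed below 0.
A_52_P604195 and A_52_P329451 gave r = -0.65, -0.18 and -0.79 (adjusted exact permutation p 0.12, 0.68 and 0.038). Their rho was -0.02, -0.05 and -0.62 (adjusted exact p 0.98, 0.98 and 0.19). Leaving out the 2 arrays farthest from the median of A_52_P329451 gave r = 0.39, -0.35 and -0.12. The Mog probes moved together on every slide (r = 0.94, 0.93 and 0.96, adjusted exact permutation p 0.0013, 0.0025 and 0.0031). The Mobp probes had r = 0.71, 0.75 and 0.86 (adjusted exact permutation p 0.069, 0.052 and 0.026).

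**Figure D2:**
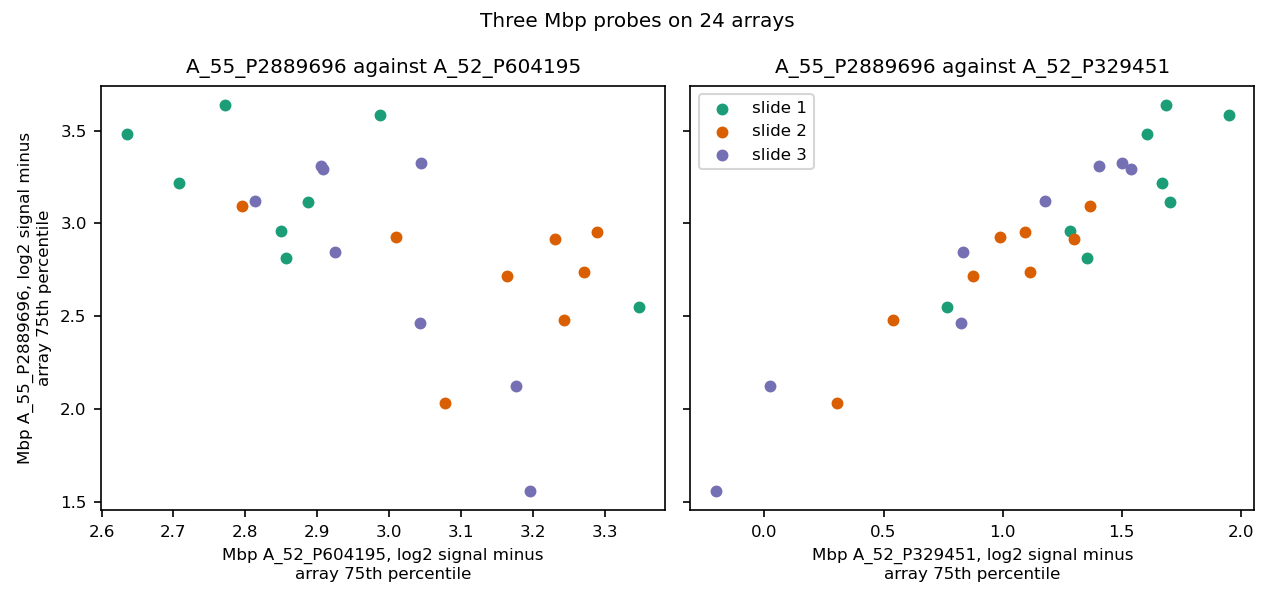
Signals of the Mbp probes on 24 arrays, as log2 signal relative to the array's 75th percentile, 1 point per array coloured by slide. A_55_P2889696 rises with A_52_P329451 on each slide (r = 0.87, 0.93 and 0.97). Against A_52_P604195 r is -0.62, -0.21 and -0.82 on slides 1, 2 and 3. Without the 2 arrays farthest from the median of A_52_P604195, r is 0.07, 0.80 and -0.36.

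APP-PS1_UA against APP-PS1_CTR asks how urolithin A changes these genes at the end of treatment. Of the 13 probes, 12 had a lower mean in APP-PS1_UA, but no probe passed the test. The median change of the 13 probes was -0.45 (-0.41 over the 9 genes), beside -0.01 over all 43973 probes tested. With limma and Benjamini-Hochberg adjustment over all probes, 0 of 13 passed an adjusted p of 0.05, where 0% of all probes did, and the members' adjusted p ran between 0.58 and 0.80. At an unadjusted p under 0.05 there were 4 member probes and 3492 probes in all (7.94%).

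Among structural myelin genes, the Mbp probe A_55_P2889696 read 2.96, 2.91, 2.71 and 2.74 in APP-PS1_UA, against 3.64, 3.48 and 3.22 in APP-PS1_CTR. These groups did not overlap, as in 5 of 13 member probes and 11.6% of all probes tested, and the change was -0.61 (SE 0.33, limma adjusted p = 0.66). For the Mbp probe A_52_P604195 the values were 2.85, 3.23, 3.16 and 3.27 in APP-PS1_UA, against 2.77, 2.64 and 2.71 in APP-PS1_CTR, also without overlap and in the other direction, with a change of 0.42 (SE 0.14, limma adjusted p = 0.58). The difference between these probes' changes was -1.04, with an exact permutation p of 0.029, the smallest that 4 against 3 arrays allow, and 0.43 after adjustment over 30 such tests.
The third Mbp probe, A_52_P329451, changed by -0.51 (SE 0.35) and the Mobp probe A_51_P291224 by -0.42 (SE 0.27), both without overlap. The other Mobp probe, A_55_P1958798, changed by -0.24 (SE 0.24) and overlapped.

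Mog, the surface glycoprotein, read -0.17, -0.15, -0.67 and -0.77 with probe A_66_P123582 in APP-PS1_UA, against 0.01, -0.07 and 0.11 in APP-PS1_CTR. The groups did not overlap and the change was -0.45 (SE 0.23, limma adjusted p = 0.64). With A_66_P119497 the Mog change was -0.63 (SE 0.28, limma adjusted p = 0.62), and the groups overlapped.
Mag, the adhesion protein on the axonal face of myelin, changed by -0.45 (SE 0.28), Cnp by -0.33 (SE 0.22) and Opalin by -0.52 (SE 0.34). None of these 3 separated the groups.

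Of the transcription factors, Olig1 was nearest to the threshold. It read 2.65, 2.89, 2.32 and 2.56 in APP-PS1_UA, against 3.18, 2.83 and 3.04 in APP-PS1_CTR, so that only APP-PS1_UA replicate 2 reached the APP-PS1_CTR range, and the change was -0.41 (SE 0.14, limma adjusted p = 0.58). Sox10 read 1.96, 2.10, 1.47 and 0.997 in APP-PS1_UA, against 2.23, 1.91 and 2.32 in APP-PS1_CTR, a change of -0.52 (SE 0.24, limma adjusted p = 0.62) with overlap. Olig2 changed by -0.30 (SE 0.17).

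In 11 of the 12 probes other than Mbp A_52_P604195, all 4 APP-PS1_UA arrays lay below the APP-PS1_CTR mean, and in the last, Olig2, 3 did. In Mbp A_52_P604195 0 did. Most of these probes moved together, so such counts repeat readings of the same animals. The share of all probes meeting this rule was not computed. The median over 13 probes stayed between -0.55 and -0.33 when any replicate was left out, with 12 probes below 0 each time. Without APP-PS1_UA replicate 4 the changes of Opalin, Sox10, Mag and Cnp were -0.24, -0.31, -0.30 and -0.21, and without APP-PS1_UA replicate 1 that of Olig2 was -0.15. That of Mobp A_55_P1958798 was -0.16 without APP-PS1_CTR replicate 1 and -0.38 without replicate 2. With slide as a fixed block, which leaves APP-PS1_UA replicate 1 as the link to slide 1, the median was -0.35, and Mbp A_52_P604195 changed by 0.14 in place of 0.42. APP-PS1_UA replicates 2 to 4 lay in array row 1 and the APP-PS1_CTR arrays in row 2. With array row as a block the median was -0.32. Choroid plexus markers had summed signals of 3.28 to 203 in APP-PS1_UA, against 94.5 to 145 in APP-PS1_CTR, in units of the 75th percentile signal, and 14 of 14 were lower in mean with 0 passing. Hippocampal neuron markers had summed signals of 36.0 to 54.1 in APP-PS1_UA, against 55.8 to 63.5 in APP-PS1_CTR, and 9 of 10 were lower in mean with 0 passing. General neuron markers did not share that direction, with 7 of 12 higher in mean and 0 passing. Their summed signals were 309 to 335 in APP-PS1_UA, against 304 to 326 in APP-PS1_CTR. The part of these lists in the members' values was not tested.

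**Figure D3:**
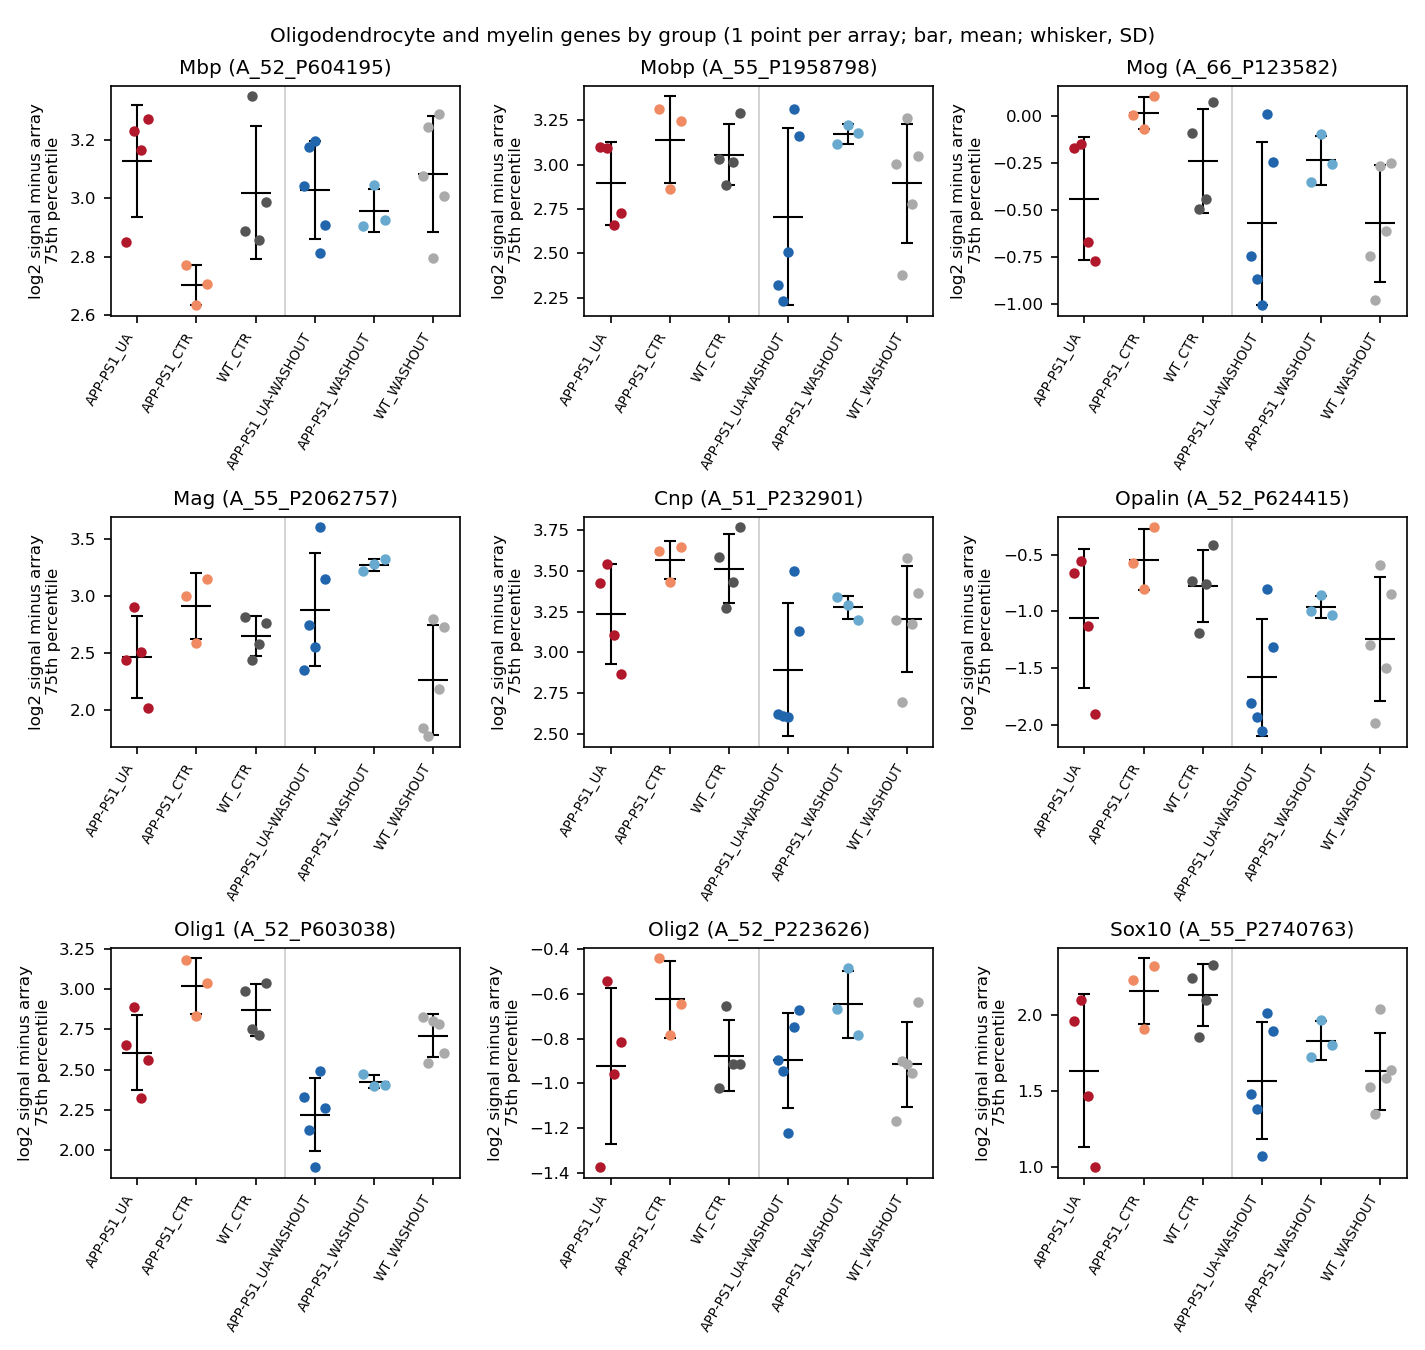
Log2 signal relative to the array's 75th percentile for the brightest probe of each of the 9 genes, 1 point per array, with the mean (bar) and SD (whisker) of each of 6 groups, end of treatment on the left and washout on the right. APP-PS1_UA means are below APP-PS1_CTR means for the genes other than Mbp, but the points overlap except for Mog, and no probe passed. The Mbp panel shows A_52_P604195, whose change had the opposite sign to those of the other Mbp probes. In the washout groups Mag is high in APP-PS1_WASHOUT (3.27 ± 0.05) against WT_WASHOUT (2.26 ± 0.48).

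APP-PS1_UA-WASHOUT against APP-PS1_WASHOUT asks whether a difference with urolithin A is seen 1 month after it was stopped, in other animals. Here too 12 of 13 probes had a lower mean in the urolithin A group and 0 passed the limma test, where 0.0591% of all probes did. The median change was -0.39 over probes and -0.34 over genes, beside -0.02 over all probes. At an unadjusted p under 0.05 there were 0 member probes, the adjusted p ran between 0.63 and 0.95, and all 13 probes overlapped between the groups, where 5.65% of all probes did not.

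Mbp A_55_P2889696 read 2.46, 2.12, 1.56, 3.12 and 3.29 in APP-PS1_UA-WASHOUT, against 3.31, 3.32 and 2.85 in APP-PS1_WASHOUT, a change of -0.65 (SE 0.32, limma adjusted p = 0.64). Replicates 1 to 3 were below the APP-PS1_WASHOUT range, and replicates 4 and 5 were within it. Mobp A_55_P1958798 read 2.32, 2.23, 2.51, 3.32 and 3.16 in APP-PS1_UA-WASHOUT, against 3.12, 3.23 and 3.18 in APP-PS1_WASHOUT, a change of -0.47 (SE 0.23, limma adjusted p = 0.64). The same replicates were low, and replicate 4 exceeded every APP-PS1_WASHOUT array.
The changes of Opalin and Cnp, whose values are given above, were -0.62 (SE 0.32) and -0.38 (SE 0.21). Those of Mog were -0.34 (SE 0.22) with A_66_P123582 and -0.56 (SE 0.27) with A_66_P119497.

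For Mag the change was -0.39 (SE 0.27), for Sox10 -0.26 (SE 0.23), for Olig2 -0.25 (SE 0.16) and for Olig1 -0.20 (SE 0.13). Mbp A_52_P604195 again had the opposite sign, at 0.07 (SE 0.13). In 9 of the 12 other probes, 4 of 5 APP-PS1_UA-WASHOUT arrays were below the APP-PS1_WASHOUT mean, and in Olig2 all 5 were. Here too most probes moved together, and the share of all probes meeting this rule was not computed. Without APP-PS1_UA-WASHOUT replicate 3 the changes of Mbp A_55_P2889696, Mbp A_52_P329451, Sox10 and Olig1 were -0.41, -0.35, -0.14 and -0.12, without replicate 2 that of Mobp A_51_P291224 was -0.29, and without replicate 1 that of Mag was -0.26. That of Mbp A_52_P604195 lay between 0.027 and 0.12 with a replicate left out. Spots well above background made up 63.7 to 74.8% of each APP-PS1_UA-WASHOUT array, replicate 3 being the lowest, against 73.8 to 76.9% in APP-PS1_WASHOUT. APP-PS1_UA-WASHOUT replicates 2 to 5 lay in array row 2 and all APP-PS1_WASHOUT arrays in row 1, and with array row as a block the median change was -0.55. Thalamus markers had summed signals of 12.6 to 19.0 in APP-PS1_UA-WASHOUT, against 15.7 to 41.3 in APP-PS1_WASHOUT, with 9 of 10 lower in mean and 0 passing, and hippocampal neuron markers 32.4 to 65.0 against 39.4 to 59.3, with 9 of 10 lower in mean and 0 passing. The part of these measures in the result was not tested.

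The change with urolithin A was set between the stages by an interaction term, washout minus end of treatment, over animals that the comparisons do not share. In limma 0 of 13 member probes passed, where 0.00227% of all probes did, 0 had an unadjusted p under 0.05, and the smallest adjusted p was 0.53, for Mbp A_52_P604195 (-0.35, SE 0.19). The 95% intervals of these differences reached between 0.40 and 1.01 to either side of the estimate.

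**Figure D4:**
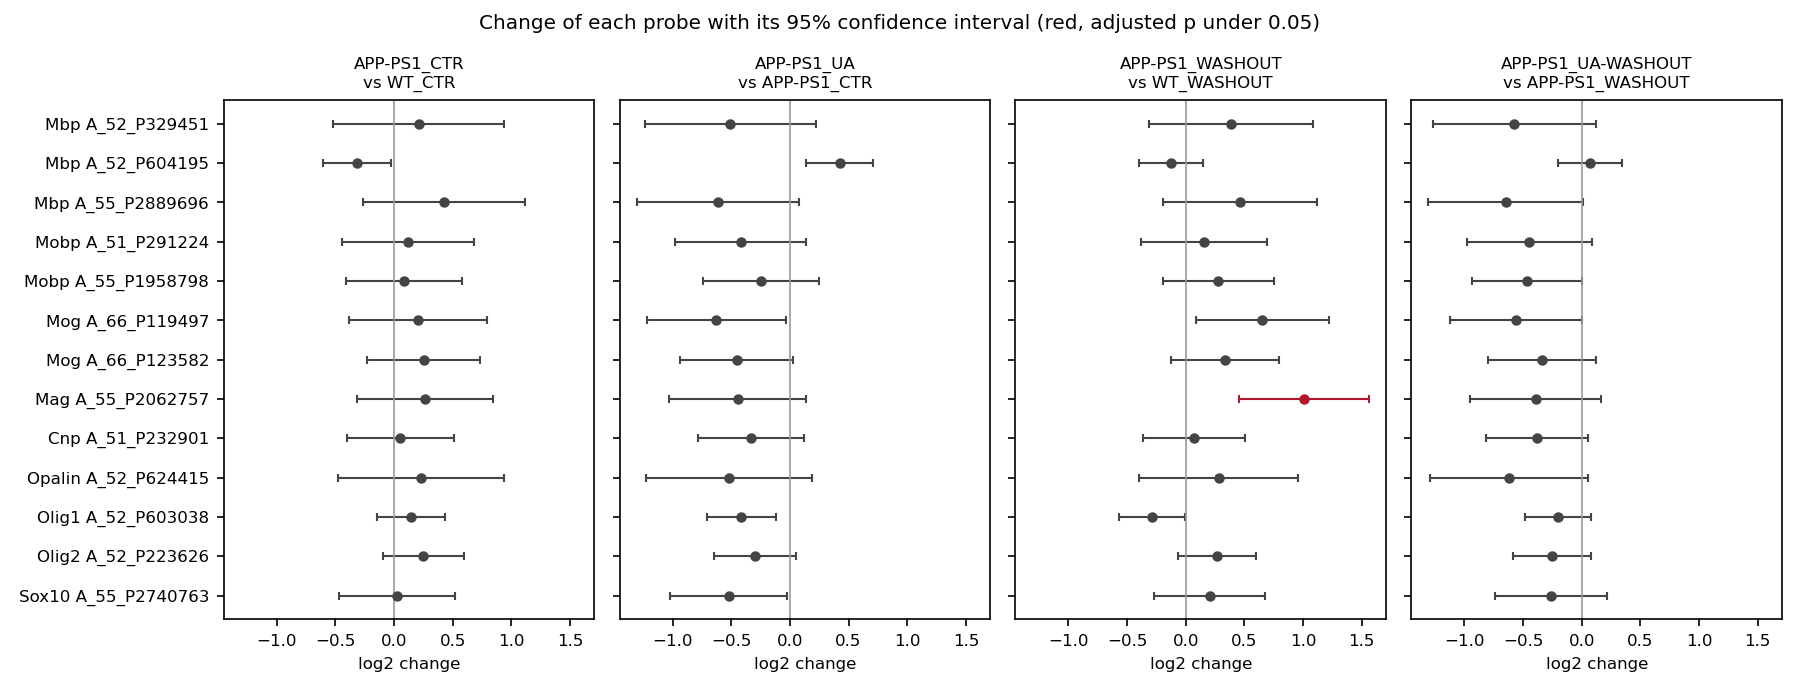
Change of each of the 13 probes in log2 units (points) with its 95% confidence interval from the limma fit (whiskers), in APP-PS1_CTR against WT_CTR, APP-PS1_UA against APP-PS1_CTR, APP-PS1_WASHOUT against WT_WASHOUT and APP-PS1_UA-WASHOUT against APP-PS1_WASHOUT. In both urolithin A panels 12 of 13 points lie left of 0, and the single red point is Mag in APP-PS1_WASHOUT against WT_WASHOUT (1.01).

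APP-PS1_CTR against WT_CTR asks what the transgenes change in water-treated mice at the end of treatment. No member passed (0 of 13 in limma, where 0.152% of all probes did), and 1 had an unadjusted p under 0.05. The means were higher in APP-PS1_CTR for 12 probes, with a median change of 0.21 (0.14 over genes) beside -0.02 over all probes. Only Mbp A_52_P604195, 1 of 13, separated the groups, where 9.16% of all probes did, at 2.77, 2.64 and 2.71 in APP-PS1_CTR, against 2.89, 3.35, 2.86 and 2.99 in WT_CTR, all APP-PS1_CTR arrays being lower (change -0.31, SE 0.14, limma adjusted p = 0.70).

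Other changes ran between 0.02 for Sox10 and 0.43 (SE 0.33) for Mbp A_55_P2889696, with Mag at 0.26 (SE 0.28), Mog A_66_P123582 at 0.25 (SE 0.23) and Olig2 at 0.25 (SE 0.17). Choroid plexus markers had higher means in APP-PS1_CTR for 14 of 14 genes (summed signals 94.5 to 145, against 4.59 to 174 in WT_CTR) with 0 passing, and 3 of 10 microglia markers passed as higher. Their part in the members' values was not tested. With array row as a block, 9 of these signs turned, and the median was -0.06 with 3 probes above 0 and 10 below. The median was 0.11 without WT_CTR replicate 3, 0.13 without APP-PS1_CTR replicate 3 and 0.10 with array weights. Without WT_CTR replicate 2, the lowest array for most members, the median was 0.09 with 8 probes above 0, and the changes of Sox10, Cnp, Mbp A_52_P329451 and Mobp A_51_P291224 were -0.07, -0.03, -0.02 and -0.02.

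APP-PS1_WASHOUT against WT_WASHOUT makes the genotype comparison 1 month later, across slides. Mag was higher in APP-PS1_WASHOUT, at 3.21, 3.28 and 3.32, against 1.84, 1.77, 2.80, 2.18 and 2.73 in WT_WASHOUT. The APP-PS1_WASHOUT arrays lay close together above the whole WT_WASHOUT range, and the change was 1.01 (SE 0.27, a 2.01-fold difference, limma adjusted p = 0.0080). Mag was the only 1 of 13 probes to pass, where 25.8% of all probes did (18.6% higher, 7.2% lower). Over the alternative settings its adjusted p was 0.00198 to 0.0311.

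Mog A_66_P119497 read -0.63, -0.67 and -0.76 in APP-PS1_WASHOUT, against -1.48, -1.69, -0.86, -1.50 and -1.18 in WT_WASHOUT. All APP-PS1_WASHOUT arrays were higher, but the change of 0.65 (SE 0.27) missed the threshold (limma adjusted p = 0.084). The other Mog probe had a change of 0.34 (SE 0.22) with overlap. Olig1 read 2.47, 2.39 and 2.41 in APP-PS1_WASHOUT, against 2.83, 2.54, 2.80, 2.78 and 2.60 in WT_WASHOUT, lower without overlap, with a change of -0.29 (SE 0.13, limma adjusted p = 0.13). These 3 of 13 probes separated the groups, where 29.5% of all probes did.

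Of the 13 probes, 11 had a higher mean in APP-PS1_WASHOUT, with a median change of 0.28 beside 0.07 over all probes. The median was 0.15 without WT_WASHOUT replicate 2, with 10 probes above 0, and 0.44 with array row as a block. Cnp had a change of 0.07 (SE 0.21), Opalin 0.28 (SE 0.32) and Olig2 0.27 (SE 0.16). Centring each array on its median lowered the median change of all probes by 0.21, to -0.14, and 8 of 13 member probes were then above 0. Relative to the median of all probes, the change was 0.93 for Mag and -0.36 for Olig1, values that this centring leaves as they are because it shifts all probes alike, and 1.04 and -0.21 with quantile normalization. Thalamus markers had summed signals of 15.7 to 41.3 in APP-PS1_WASHOUT, against 12.6 to 28.7 in WT_WASHOUT, with 8 of 10 higher in mean and 2 passing, and 7 of 10 microglia markers passed as higher (44.7 to 60.2 against 27.2 to 36.7). Schwann cell markers, of the peripheral cells that also express Mag, Mbp and Cnp, summed to 3.73 to 4.54 against 5.60 to 7.34. The part of these lists in the result was not tested.

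APP-PS1_UA-WASHOUT against WT_WASHOUT, also across slides and sharing WT_WASHOUT with the comparison above, had 2 of 13 members pass, where 35% of all probes did (22% higher, 13% lower). Olig1 was lower at 2.33, 2.13, 1.89, 2.49 and 2.26 in APP-PS1_UA-WASHOUT, against 2.83, 2.54, 2.80, 2.78 and 2.60 in WT_WASHOUT. No array overlapped, as in 1 of 13 members and 23.6% of all probes, and the change was -0.49 (SE 0.12, limma adjusted p = 0.0024), with adjusted p of 1.5e-05 to 0.013 over the alternatives. Mag was higher at 2.35, 2.74, 2.56, 3.60 and 3.14 in APP-PS1_UA-WASHOUT, with overlap and a change of 0.62 (SE 0.23, limma adjusted p = 0.044). That call was lost without WT_WASHOUT replicate 1, 2 or 4 or APP-PS1_UA-WASHOUT replicate 2, 4 or 5 (adjusted p 0.053 to 0.14). It was also lost under 3 other settings, namely normexp background correction, only the groups compared and centring on the array median. Over the alternatives the limma adjusted p of Mag was 0.012 to 0.27.

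The median change of the 13 probes was -0.19 beside 0.03 over all probes, with 9 below 0. With a replicate left out it ran between -0.31 (without APP-PS1_UA-WASHOUT replicate 4, 12 probes below 0) and 0.033 (without APP-PS1_UA-WASHOUT replicate 3, 6 below 0), so its sign rests on that array. Centring on the array median moved the median of all probes by -0.30, to -0.27, and then 5 members passed, where 55.3% of all probes did, all 5 being lower: Olig1, Cnp, both Mobp probes and Mbp A_52_P604195. Relative to the median of all probes, 2 of 13 members were higher, and 6 were with quantile normalization. Microglia markers summed to 44.2 to 59.7 in APP-PS1_UA-WASHOUT, against 27.2 to 36.7 in WT_WASHOUT, and 8 of 10 passed as higher. Schwann cell markers summed to 3.43 to 4.24 against 5.60 to 7.34, with 3 of 7 passing as lower, and choroid plexus markers had higher means for 14 of 14 genes with 0 passing. The part of these lists in the result was not tested. The genotype change was compared between stages by an interaction, in which 0 of 13 members passed (limma, where 13.1% of all probes did). The largest differences were 0.75 (SE 0.39, adjusted p = 0.22) for Mag and -0.43 (SE 0.19, adjusted p = 0.16) for Olig1, the 1 member with an unadjusted p under 0.05.

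APP-PS1_UA against WT_CTR had 0 of 13 members pass (limma, where 0.0432% of all probes did), with 1 at an unadjusted p under 0.05, Sox10 (-0.50, SE 0.22, adjusted p = 0.82). The median change was -0.27 beside -0.03 over all probes, 12 of 13 probes were below 0, and every probe overlapped, where 2.54% of all probes did not. The median was -0.14 without WT_CTR replicate 4, -0.17 without APP-PS1_UA replicate 3, -0.15 without APP-PS1_UA replicate 4 and -0.16 with slide as a fixed block. That block estimate rests on APP-PS1_UA replicate 1, the array of its group on slide 1. Choroid plexus markers were lower in mean for 13 of 14 genes with 0 passing (summed signals 3.28 to 203 in APP-PS1_UA, against 4.59 to 174 in WT_CTR), 2 of 10 microglia markers passed as higher, and their part in the members' values was not tested. The comparison shares WT_CTR with the genotype comparison and APP-PS1_UA with the treatment comparison.

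Across the 6 groups, APP-PS1_CTR had the highest mean in 10 of 13 probes and APP-PS1_UA-WASHOUT the lowest in 8. For Cnp the means were 3.24 ± 0.31 in APP-PS1_UA, 3.57 ± 0.12 in APP-PS1_CTR and 3.51 ± 0.21 in WT_CTR, and 2.89 ± 0.41 in APP-PS1_UA-WASHOUT, 3.28 ± 0.07 in APP-PS1_WASHOUT and 3.20 ± 0.32 in WT_WASHOUT (SD, n = 4, 3, 4, 5, 3 and 5). Ordered by mean, neighbouring groups differed by less than the larger SD of the pair, except WT_CTR and APP-PS1_WASHOUT (a gap of 0.24 beside an SD of 0.21). Olig1 had 2.61 ± 0.23, 3.02 ± 0.17 and 2.87 ± 0.16 in the same end-of-treatment groups and 2.22 ± 0.23, 2.42 ± 0.04 and 2.71 ± 0.13 in the washout groups. For Olig1 every neighbouring pair in the order differed by less than the larger SD of the pair.

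Further genes of the lineage were read from lists of 15 compact myelin and junction genes, 20 measured enzymes of myelin lipid and metabolism, 11 transcription factors, 14 precursor genes, 27 measured mature oligodendrocyte genes and 13 genes reported in oligodendrocytes near amyloid. In both urolithin A comparisons 0 genes of these lists passed in limma, where 0% of named genes did at the end of treatment and 0.0485% after the washout. The medians in APP-PS1_UA against APP-PS1_CTR were -0.25 for compact myelin, -0.38 for mature oligodendrocyte and 0.13 for precursor genes, with 15 of 15, 25 of 27 and 5 of 14 below 0. In APP-PS1_UA-WASHOUT against APP-PS1_WASHOUT they were -0.30, -0.30 and -0.12, with 14 of 15, 26 of 27 and 12 of 14 below 0.

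In APP-PS1_CTR against WT_CTR, C4b, a complement component on the near-amyloid list, was the only gene of these lists to pass, where 0.248% of named genes did (1.14, SE 0.18, limma adjusted p = 0.0060). It also passed in APP-PS1_UA against WT_CTR (0.92, adjusted p = 0.040), where 0.0808% of named genes did, and other brain cells express it too. In APP-PS1_WASHOUT against WT_WASHOUT, where 23.2% of named genes passed, 9 genes of these lists rose and 2 fell. Of the rises, 3 were on the list of genes reported in oligodendrocytes near amyloid. The largest changes among those that passed included C4b (1.27), the transcription factor Nkx6-2 (0.88), transferrin Trf (0.80), Cacng4 (0.63) and the lysosomal protease Ctsb (0.51), all higher in APP-PS1_WASHOUT.
In APP-PS1_UA-WASHOUT against WT_WASHOUT, where 32.7% of named genes passed, 8 genes of these lists rose and 8 fell. Again 3 of the rises were on the list of genes near amyloid. The largest changes included C4b (1.27), the myelin cytoskeletal gene Ermn (1.03), Adamts4 (-0.60), Trf (0.53) and Ctsb (0.53). Trf is also expressed by choroid plexus, whose summed markers ran between 5.65 and 195 in APP-PS1_UA-WASHOUT, between 12.3 and 203 in APP-PS1_WASHOUT and between 3.32 and 159 in WT_WASHOUT.

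**Figure D5:**
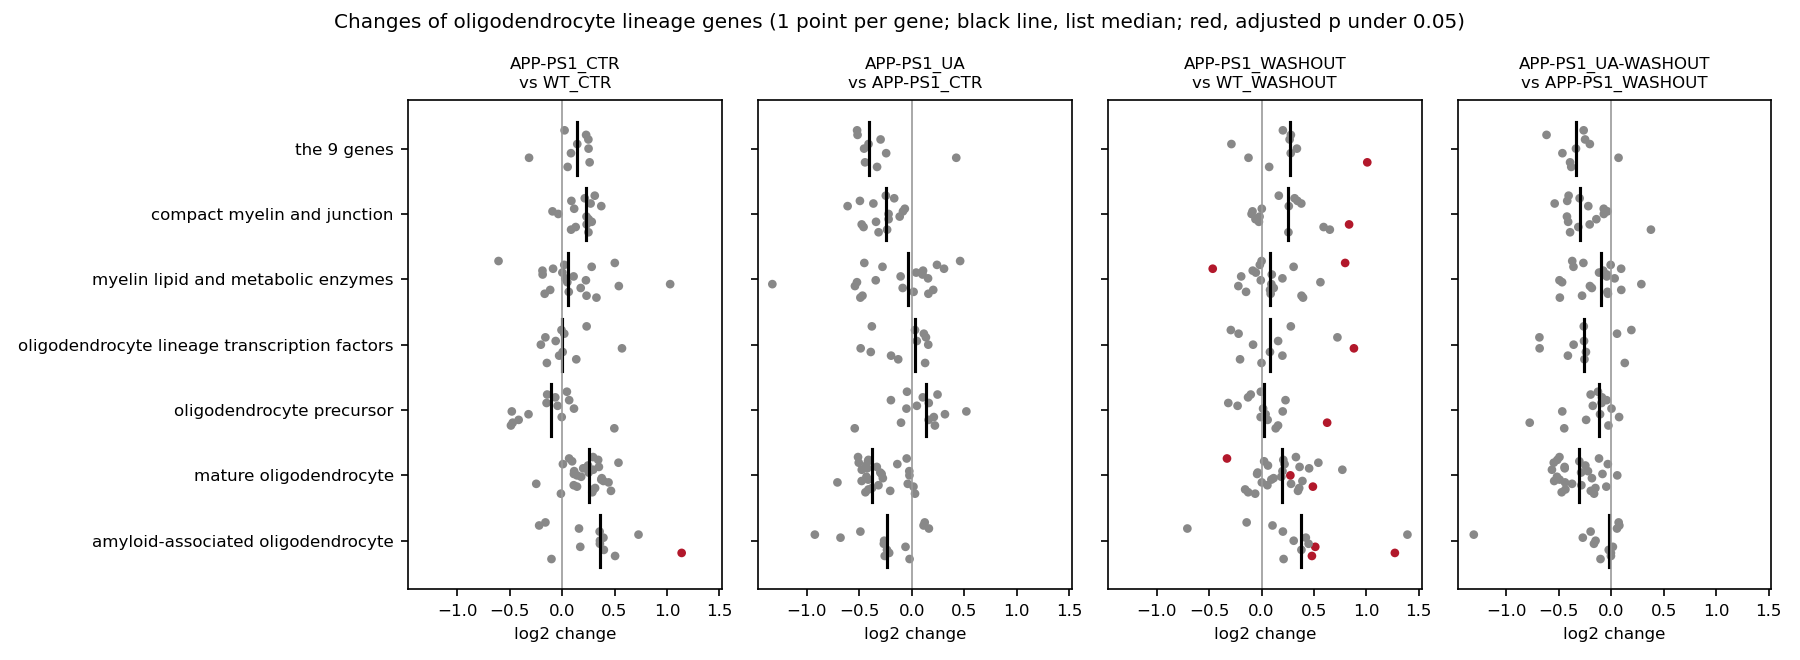
Change of each gene in log2 units (1 point per gene) for the 9 genes and 6 further lineage lists, in the 4 comparisons named above each panel, with list medians as black lines and genes past an adjusted p of 0.05 in red. In both urolithin A panels the medians of compact myelin (-0.25 and -0.30) and mature oligodendrocyte genes (-0.38 and -0.30) lie left of 0 and no point is red.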

How the data were processed

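The deposited scanner files hold each spot's processed signal, an intensity from which the authors' Feature Extraction 12.0.3.1 had subtracted background, per the file headers, with no scaling between arrays. Values in the deposited matrix are a score, which lay within 0.005 of each array's log signal standardized to mean 0 and SD 1 (column medians -0.17 to -0.06); its log base is unknown, and it served as an alternative. Here flagged spots were dropped (1125 values among probes tested), a probe's spots were averaged as log2 values and the array's 75th percentile was subtracted (1285 to 2292). Probes well above background on at least 3 arrays with at least 2 values per group were tested, 43973 in all. Symbols came from RefSeq accessions (32994 probes with a symbol, 23611 without). A gene is shown by its probe of highest mean signal.

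A single limma 3.58.1 model (R 4.3.3) of 6 group means was fitted to 24 arrays for 6 comparisons and 2 interactions, and a probe was called where its p, adjusted by Benjamini-Hochberg across the tested probes, was under 0.05. The script was tested on simulated data. Probe pairs were tested by exact two-sided permutation (Python 3.11.15, scipy 1.17.1). Named genes were all 9 members, the called list genes of largest change (at most 6 per comparison) and the 10 genes most like the members' mean; a few are not reported here. Of the list genes, 5 had no kept probe. The members and lists were chosen with earlier results of these data known. Replicate numbers were checked for pairing. The files hold no mean signal column, so the normexp alternative used median signals (offset 50).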

Additional observations from a re-analysis of the deposited data

How the results depend on the processing

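The members' signals were well above background on all arrays. The small number of arrays per group limits the precision of every result. In both comparisons of a transgenic washout group with WT_WASHOUT, slide and group cannot be told apart either. In both urolithin A comparisons 0 members passed under every alternative run. Members passing in APP-PS1_WASHOUT against WT_WASHOUT were 2 in place of 1 at an adjusted p under 0.1 (32.8% of all probes), centred on the array median (33.5%), with array weights (33.2%), with only the groups compared (21%) or with slide as a random block (33%), beside 25.8% otherwise, and 1 to 2 with a replicate left out. In APP-PS1_UA-WASHOUT against WT_WASHOUT they were 5 in place of 2 centred on the array median (55.3% of all probes), 1 with normexp (26%) or only the groups compared (29.4%), beside 35% otherwise, and 1 to 2 with a replicate left out. The genotype interaction had 1 in place of 0 centred on the array median, with 17.1% of all probes in place of 13.1%. Replicate numbers did not pair the samples (correlations -0.25 to 0.34), and the replicate block left the members passing at 0, 0, 1, 0, 0 and 2. Slide as a fixed block could not be fitted for the comparisons of the transgenic washout groups with WT_WASHOUT or for the genotype interaction. Over all probes, the 67 calls of APP-PS1_CTR against WT_CTR were 9 with the row block and 197 with array weights, the 0 of APP-PS1_UA against APP-PS1_CTR were 10 with the slide block, and the 26 of APP-PS1_UA-WASHOUT against APP-PS1_WASHOUT were 3270 without the filter and 0 with only the groups compared.

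Changes of sign occurred in 57 values, none of which passed in the model reported, and the cause was not tested. Centred on the array median, APP-PS1_WASHOUT against WT_WASHOUT gave -0.14 for Cnp, -0.055 for Mobp A_51_P291224 and -0.0087 for Sox10. The same centring gave -0.019 for Mbp A_52_P604195 in APP-PS1_UA-WASHOUT against APP-PS1_WASHOUT and 0.028 for Olig2 in APP-PS1_UA against WT_CTR. In APP-PS1_UA-WASHOUT against WT_WASHOUT it gave -0.21 and -0.30 for Mog A_66_P119497 and A_66_P123582 and -0.28 for Olig2. With the row block, APP-PS1_CTR against WT_CTR gave -0.14 for Cnp, -0.13 for Mag, -0.019 for Mbp A_52_P329451, -0.00917 and -0.12 for Mobp A_51_P291224 and A_55_P1958798, -0.067 and -0.00994 for Mog A_66_P119497 and A_66_P123582, -0.059 for Opalin and -0.20 for Sox10. With slide as a fixed block or within slide 1, APP-PS1_UA against WT_CTR gave -0.17 for Mbp A_52_P604195, 0.043 for Mobp A_55_P1958798, 0.067 for Mog A_66_P123582 and 0.11 for Opalin. In APP-PS1_UA-WASHOUT against WT_WASHOUT, normexp gave 0.027 for Sox10, quantile normalization -0.021 for Mog A_66_P123582 and -0.023 for Olig2, and slide as a random block -0.012 for Olig2. The scores there gave 0.024 for Mbp A_52_P604195, -0.058 for both Mog probes and -0.064 for Olig2.

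With each replicate left out in turn, APP-PS1_CTR against WT_CTR ran from -0.027 to 0.14 for Cnp, -0.022 to 0.25 for Mobp A_51_P291224, -0.016 to 0.38 for Mbp A_52_P329451, -0.00105 to 0.22 for Mobp A_55_P1958798 and -0.067 to 0.15 for Sox10. APP-PS1_WASHOUT against WT_WASHOUT ran from -0.053 to 0.17 for Cnp. APP-PS1_UA against WT_CTR ran from -0.17 to 0.10 for Olig2 and -0.34 to 0.0038 for Mbp A_55_P2889696. APP-PS1_UA-WASHOUT against WT_WASHOUT ran from -0.046 to 0.10 for Olig2, -0.40 to 0.033 for Mbp A_52_P329451, -0.17 to 0.064 for Sox10, -0.38 to 0.052 for Mbp A_55_P2889696, -0.10 to 0.22 for Mog A_66_P119497 and -0.14 to 0.11 for Mog A_66_P123582.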
